A study of Mus musculus with 32 samples.

Results

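Open chromatin around 8 marker genes of Kupffer cells and macrophages was compared between Kupffer cells, the macrophages resident in the liver, and liver endothelial cells. The genes were Csf1r, Clec4f, Timd4, Adgre1 and Cd5l, each with a window of its own, and C1qa, C1qb and C1qc, which lie together in 1 window. A peak belonged to a window of the mouse genome build mm9 if its centre lay in it. The windows were chromosome 18 from 61230001 to 61320000 for Csf1r, chromosome 6 from 83560001 to 83640000 for Clec4f, chromosome 11 from 46590001 to 46690000 for Timd4, chromosome 17 from 57480001 to 57650000 for Adgre1, chromosome 3 from 87130001 to 87210000 for Cd5l and chromosome 4 from 136410001 to 136490000 for the C1q genes. These 600 kb held 150 of the 137684 peaks of the Kupffer list and 20 of the 91453 peaks of the endothelial list. The windows are named after the genes they were drawn around. The gene table at hand is on the later assembly GRCm38.p6, so no peak was assigned to an exon, an intron or a gene start. Peak positions do not measure expression, and the cell type labels were not checked against marker RNA.

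The peaks come from ATAC-seq, an assay that marks open DNA by transposase insertion, on 32 libraries from male C57BL/6J mice on normal chow. The 8 groups of 4 replicates were Kupffer cells of REV-ERB a/b double knockout and of WT mice, collected at ZT10 and at ZT22 (zeitgeber time, in hours from lights on), and endothelial cells of the same genotypes at the same times. Per the series' design text the deletion was in hepatocytes of adult animals, so neither cell type profiled was the cell type targeted; the driver of the deletion is not given in the sources used here. The authors deposited 1 list of positions for each cell type, with no height, read count or library for any peak. Depth is therefore unknown, knockout was not compared with WT nor ZT22 with ZT10, no value below has a replicate, and no p-value was computed.

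Kupffer cells line the sinusoids of the liver and clear particles, dying cells and aged red cells from portal blood. Macrophages depend on CSF1R, the receptor of the growth factors CSF1 and IL-34, for survival. In the mouse, the lectin CLEC4F is a marker of Kupffer cells, and TIMD4, a receptor for phosphatidylserine on dying cells, marks long-resident Kupffer cells. ADGRE1 is the adhesion receptor known as F4/80, and CD5L, also called AIM, is a protein secreted by tissue macrophages. The 3 chains encoded by C1qa, C1qb and C1qc assemble into C1q, the recognition molecule of the classical complement pathway, and macrophages are a main source of it. The macrophage factor PU.1 and its relatives of the ETS family bind DNA around a GGAA core.

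Sequence upstream of the gene start was at hand for 5 of the 8 genes, from RefSeq on GRCm38.p6. It is shown because the windows were drawn around these genes, whatever number of peaks they held. Without an annotation of mm9, peaks could not be set against these starts. Each run is the 250 bases before a start, read 5′ to 3′ along the gene. The runs are Clec4f at chr6:83656117-83656366 on the minus strand, Timd4 at chr11:46810549-46810798 on the plus strand, Cd5l at chr3:87357631-87357880 on the plus strand, C1qb at chr4:136886201-136886450 on the minus strand and C1qc at chr4:136892915-136893164 on the minus strand. These positions are on another build than the peaks and cannot be compared with them. Capitals mark the PU box GAGGAA and the ETS site GGAAGT on either strand, which overlap in C1qc.
Clec4f: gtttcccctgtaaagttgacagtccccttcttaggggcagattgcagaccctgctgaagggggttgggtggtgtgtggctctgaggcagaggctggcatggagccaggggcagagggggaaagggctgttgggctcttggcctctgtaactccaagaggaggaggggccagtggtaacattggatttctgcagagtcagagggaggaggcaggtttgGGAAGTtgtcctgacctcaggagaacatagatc
Timd4: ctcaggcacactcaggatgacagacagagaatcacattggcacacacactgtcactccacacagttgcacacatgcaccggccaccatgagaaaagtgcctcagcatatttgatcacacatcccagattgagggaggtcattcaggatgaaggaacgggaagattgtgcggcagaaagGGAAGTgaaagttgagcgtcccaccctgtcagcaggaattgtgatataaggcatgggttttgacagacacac
Cd5l: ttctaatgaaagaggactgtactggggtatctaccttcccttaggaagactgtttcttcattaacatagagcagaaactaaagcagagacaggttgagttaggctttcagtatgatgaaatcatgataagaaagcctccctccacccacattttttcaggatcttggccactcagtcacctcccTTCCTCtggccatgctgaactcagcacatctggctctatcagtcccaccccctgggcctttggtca
C1qb: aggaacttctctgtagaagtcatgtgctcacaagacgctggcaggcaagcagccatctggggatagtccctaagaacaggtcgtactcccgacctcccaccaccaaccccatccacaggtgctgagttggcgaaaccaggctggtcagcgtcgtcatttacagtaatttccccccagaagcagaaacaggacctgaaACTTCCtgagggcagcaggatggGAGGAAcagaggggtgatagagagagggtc
C1qc: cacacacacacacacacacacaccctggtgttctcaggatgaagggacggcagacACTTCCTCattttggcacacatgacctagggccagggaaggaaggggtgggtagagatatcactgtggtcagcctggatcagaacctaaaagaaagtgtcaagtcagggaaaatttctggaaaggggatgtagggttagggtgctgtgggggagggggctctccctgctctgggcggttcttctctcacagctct
The PU box was found in 3 of the 5 (Cd5l, C1qb and C1qc), beside 23.3% of the 32851 gene starts in the table. The ETS site was found in 4 of the 5, all but Cd5l, beside 19.7% of starts. All 5 held at least 1 of these motifs, beside 36.7% of starts; marking these motifs out of the 7 searched was decided after the matches were seen. The MAF half-site TGCTGA was present in Clec4f, Timd4, Cd5l and C1qb, beside 16.1% of starts. The nuclear receptor half-site AGGTCA was present in Clec4f, Timd4 and C1qc, beside 14% of starts. The RBPJ site TGGGAA was present in Clec4f alone, beside 21.6%; there it shares the letters GGAA with the ETS site. The AP-1 site TGANTCA (6.75% of starts) and the E-box CACGTG (6.02%) were in none of the 5. All motifs were read on both strands, and a match is a string of letters, not a site shown to be bound.

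Over the 6 windows together, the Kupffer list had 7.5 peaks for each endothelial peak, where the whole lists had 1.51. A peak is called shared here if it has at least 1 bp in common with a peak of the other cell type, and Kupffer-only or endothelial-only if it has none. Of the 150 Kupffer peaks, 137 or 91.3% were Kupffer-only (95% exact binomial interval 85.6% to 95.3%), against 60.9% of the whole Kupffer list. Of the 20 endothelial peaks, 7 or 35.0% were endothelial-only (15.4% to 59.2%), against 41.7% of the whole endothelial list, a value inside that interval. On the 6 chromosomes that carry the windows the Kupffer-only share ran from 58.3% to 61.9%. The intervals cover counting error alone and treat peaks as independent, which neighbouring peaks are not.

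By these counts, which are not scaled to window length, the windows were of 3 kinds. Those of Timd4, Cd5l and Adgre1 held 26 Kupffer peaks and 1 endothelial peak each. Those of Csf1r and Clec4f held as many Kupffer peaks or more, 34 and 26, and 4 and 6 endothelial peaks. The C1q window held 12 Kupffer and 7 endothelial peaks, a ratio of 1.71 that is near the 1.51 of the whole lists. The windows of Csf1r, Clec4f and the C1q genes thus held 17 of the 20 endothelial peaks and 11 of the 13 that were shared. Per 100 kb, Kupffer peaks numbered 37.78 at Csf1r, 32.5 at Clec4f and at Cd5l, and 26 at Timd4. In the 170 kb of Adgre1 they numbered 15.29 per 100 kb, near the 15 of the C1q window. Endothelial peaks per 100 kb were 0.588 at Adgre1 and 8.75 at the C1q genes.

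**Figure D1:**
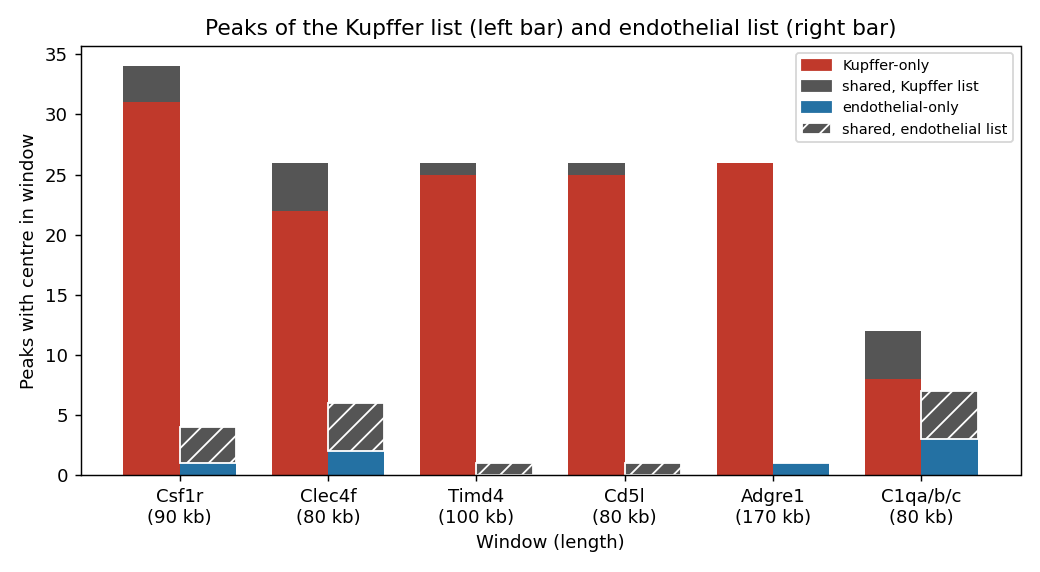
Number of peaks with their centre in each window; the left bar of each pair is the Kupffer list and the right bar the endothelial list, split into peaks of that list alone and shared peaks. The left bars reach 34 at Csf1r and 26 at Clec4f, Timd4, Cd5l and Adgre1, and the pair is closest in height at C1qa/b/c, with 12 and 7.

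Kupffer-only peaks were more numerous than in most windows of equal length laid end to end along chromosomes 1 to 19 and X, by a margin that differed among the 6. Csf1r had 31 Kupffer-only peaks in 90 kb, a number reached by 1 of 19216 windows with any peak (0.0052%), whose median was 3. Cd5l had 25 in 80 kb, reached by 16 of 21101 windows (0.0758%), and Clec4f had 22, reached by 49 (0.232%); the median was 3. Timd4 had 25 in 100 kb, reached by 53 of 17704 windows (0.299%), with a median of 3. Adgre1, with 26 in 170 kb, stood lower in its distribution: 318 of 11497 windows (2.77%) held as many, with a median of 5. The C1q window, with 8 in 80 kb, was matched or passed by 18.3% of windows. The named windows were placed on their genes with earlier results of these data known and the others on a fixed grid, so these percentages describe the position of each window and are not a test.

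**Figure D2:**
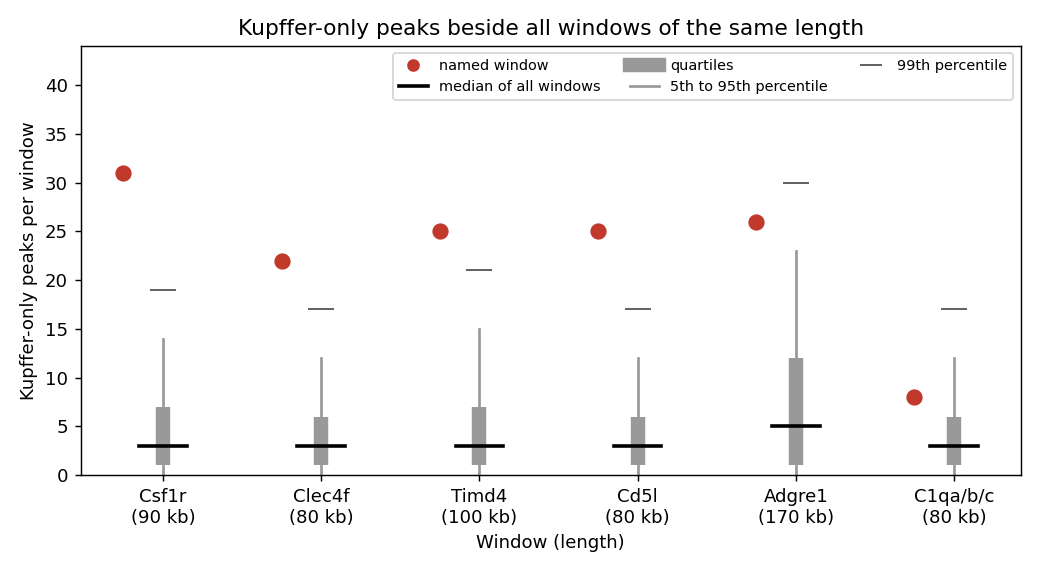
Kupffer-only peaks in each named window (red points) beside all windows of the same length on chromosomes 1 to 19 and X that hold any peak (black line median, grey bar quartiles, thin line 5th to 95th percentile, dash 99th percentile). The points of Csf1r (31), Clec4f (22), Timd4 (25) and Cd5l (25) lie above the 99th percentile, Adgre1 (26) lies between the 95th (23) and the 99th (30), and C1qa/b/c (8) lies below the 95th (12).

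Windows this rich in Kupffer peaks usually held many endothelial peaks as well. Of the 228 windows of 80 kb with at least 26 Kupffer peaks, the median number of endothelial peaks was 15.5. Of these, 3 (1.32%) had as few as Cd5l, with 1, and 19 (8.33%) had as few as Clec4f, with 6. Among 554 windows of 100 kb with at least 26 Kupffer peaks, 3 (0.542%) had 1 endothelial peak or none, as Timd4 did, and among 1723 such windows of 170 kb 9 (0.522%) did, as Adgre1 did. Of 33 windows of 90 kb with at least the 34 Kupffer peaks of Csf1r, none had as few as its 4 endothelial peaks, and the median was 19. For the C1q window the corresponding share was 38.4%, or 1626 of 4230.

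Taken over both flanks, the surroundings of the windows were less rich in Kupffer peaks. In all, the windows held 250 Kupffer peaks per Mb and the flanks of 100 kb on either side held 110.0, a ratio of 2.27. Endothelial peaks numbered 33.3 per Mb in the windows and 45.0 in the flanks, a ratio of 0.741. The Kupffer ratio ran from 1.22 at Adgre1 to 4.73 at Timd4. At Adgre1 it averages unequal sides: the lower flank of 100 kb held 25 Kupffer peaks, a higher density than the 152.9 per Mb of the window, and the upper flank held 0. The endothelial ratio ran from 0.107 at Adgre1 to 2.19 at the C1q genes, and was 0.444 at Csf1r, 1.00 at Timd4, 1.25 at Cd5l and 1.36 at Clec4f.

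Edges of the windows did not coincide with the ends of the peak clusters in every case. The nearest peak centre inside an edge lay between 257.5 bp (lower edge, Cd5l) and 26.3 kb (upper edge, Adgre1) from it. The nearest centre outside lay between 455.5 bp (upper edge, Clec4f) and 160.7 kb (upper edge, Adgre1).

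**Figure D3:**
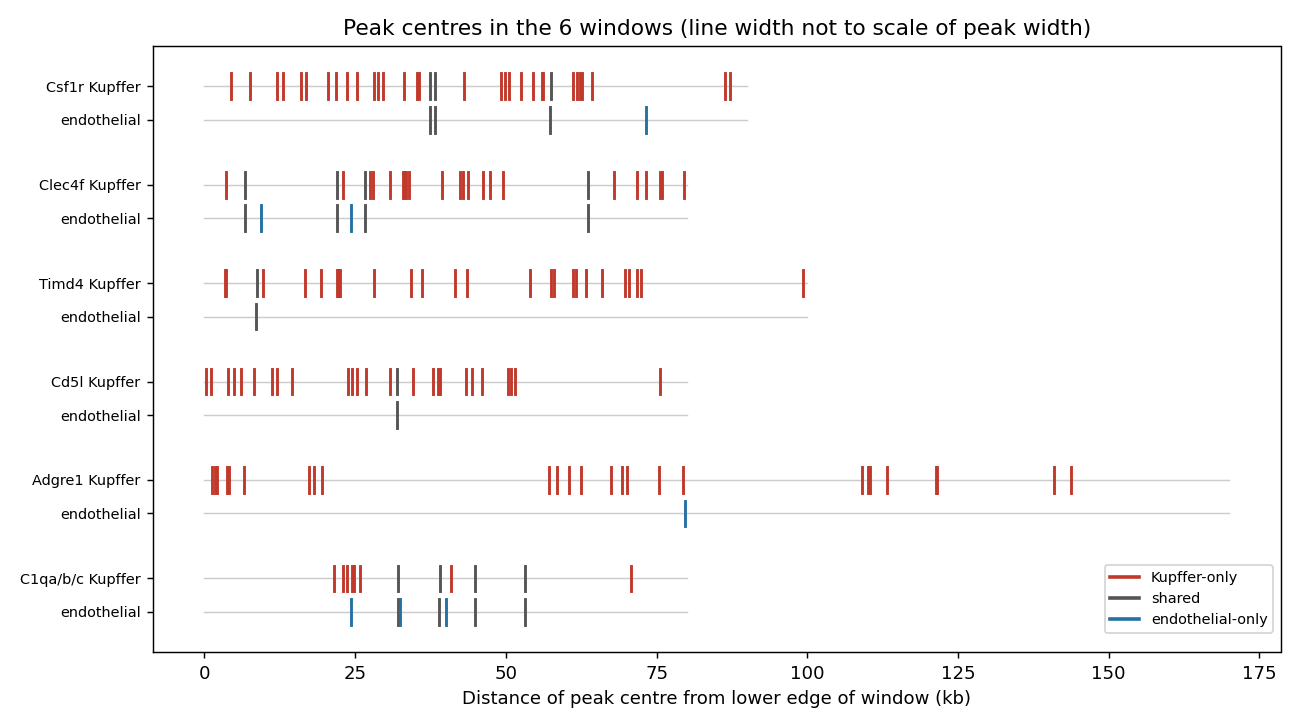
Centres of all 150 Kupffer peaks (upper line of each pair) and 20 endothelial peaks (lower line), by distance in kb from the lower edge of the window; red marks Kupffer-only, blue endothelial-only and grey shared peaks. The endothelial lines of Timd4, Cd5l and Adgre1 carry 1 mark each, and the 7 endothelial marks of C1qa/b/c lie within 29.1 kb.

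Csf1r, between Pdgfrb and Hmgxb3 in the RefSeq gene order, had the most Kupffer peaks of the 6 windows. Of these 34 peaks, 32 formed 1 cluster from 61234378 to 61294510, in which no gap exceeded 10 kb, and the other 2 lay 21.8 kb further up. Clusters were formed from the peaks of a window alone, so one near an edge may continue beyond the window. At Csf1r a further Kupffer-only peak, starting at 61228147, lay just below the window. The lower part of the window was Kupffer-only throughout: a run of 17 Kupffer-only peaks, with no endothelial peak among them, spanned 37.6 kb up to 61265706, and 16 of the 17 lay in the window. Of 34902 such runs in the genome, with a median of 2 peaks, 0.372% were as long.

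Immediately above this run lay a pair of shared sites at Csf1r. The Kupffer peak from 61267349 to 61267574 met an endothelial peak from 61267311 to 61267625, with centres 6.5 bp apart, and the Kupffer peak from 61268165 to 61268438 met an endothelial peak from 61268164 to 61268432, with centres 3.5 bp apart. At the first of these the Kupffer peak was 226 bp wide and its endothelial partner 315 bp, and at the next the Kupffer peak was 274 bp wide and its partner 269 bp. A further shared site joined a Kupffer peak from 61287352 to 61287584 with an endothelial peak from 61287178 to 61287406; their centres were 176 bp apart, and with an overlap of 50% of both peaks asked for it was no longer shared.

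The densest stretch of a window is here the 10 kb with the most Kupffer-only centres. Stretches with fewer centres can be tighter, as at the C1q genes, with 6 peaks in 4.5 kb. In the upper part of the Csf1r cluster this number was the highest of the 6 windows, with 8 Kupffer-only peaks between 61284367 and 61294510. Of the 83810 Kupffer-only peaks on chromosomes 1 to 19 and X, 0.0978% began a stretch of 10 kb with at least as many centres, their own included. The widest Kupffer-only peak, at 377 bp, ran from 61242817 to 61243193, 15.6 kb from the nearest endothelial peak; 0.888% of Kupffer-only peaks were as wide. The endothelial-only peak of this window, from 61303143 to 61303305, lay 8.63 kb from the nearest Kupffer peak, in the 21.8 kb between the clusters.

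Clec4f, between Stambp and Cd207, the gene of the dendritic-cell lectin langerin, had 26 Kupffer peaks in 3 clusters, with 2, 17 and 7 peaks. The middle cluster, from 83581923 to 83609666, held a run of 14 Kupffer-only peaks over 22.3 kb; 0.728% of runs were as long. Within it, 7 Kupffer-only peaks lay between 83587366 and 83594117, and 0.481% of Kupffer-only peaks began a stretch of 10 kb with as many. The last of these 7, from 83593692 to 83594117, was the widest Kupffer-only peak in any of the 6 windows at 426 bp, and 0.284% of all Kupffer-only peaks were as wide.

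Shared sites at Clec4f lay on both sides of that run. Their Kupffer peaks started at 83566605, 83581923, 83586511 and 83623572, and the centres of their endothelial partners were 10.5, 41.5, 34 and 96 bp away. The Kupffer peaks were 210, 202, 251 and 211 bp wide, and the endothelial partners 217, 151, 237 and 151 bp. The site at 83623572 was not shared at an overlap of 50% of both peaks. Of the 2 endothelial-only peaks, 1 ran from 83569180 to 83569433 and the other from 83584118 to 83584378, 2365 and 1103 bp from the nearest Kupffer peak. Of the 6 endothelial peaks, 5 were centred within 26.6 kb of the lower edge of the window, and the last lay 63.6 kb from it.

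Timd4, between Havcr1, which encodes another member of the TIM family, and Sgcd, had 26 Kupffer peaks in clusters of 14, 11 and 1. At its 1 shared site a 340 bp Kupffer peak from 46598618 to 46598957 was overlapped at its margin by an endothelial peak from 46598519 to 46598669, which had the smallest common width of 151 bp. The centres were 193.5 bp apart, the largest offset among the 13 shared sites; asked to overlap by 50% of both peaks, the Timd4 window had no shared site. From there on, 36 Kupffer-only peaks followed without an endothelial peak over 324.5 kb, to 46924069, and 23 of them were in the window. In the genome 4 of 34902 runs (0.0115%) were as long, and the longest had 59 peaks.

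The 11 Kupffer-only peaks of the middle Timd4 cluster lay between 46643966 and 46662617, and the 6 peaks of its densest stretch between 46643966 and 46653336. The widest Kupffer-only peak ran from 46625995 to 46626311 (317 bp), 27.3 kb from the nearest endothelial peak, and 2.55% of Kupffer-only peaks were as wide. Kupffer-only peaks of this window lay a median of 34.8 kb from the nearest endothelial peak, the longest distance of the 6 windows, against 4.80 kb over all Kupffer-only peaks. Above the window Kupffer peaks were few: the upper flank of 100 kb held 3 Kupffer and 0 endothelial peaks, and the lower flank 8 and 2.

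Adgre1, between Vav1, a signalling gene of blood cells, and the vomeronasal receptor gene Vmn2r120, was the one window with no shared site; its 26 Kupffer peaks were all Kupffer-only (86.8% to 100%). They fell into 5 clusters of 6, 3, 9, 6 and 2 peaks. The stretch between the second and the next cluster, 37.5 kb from 57499626 to 57537096, was the longest in any window without a peak of either list. The cluster of 9 ran from 57537097 to 57559546. The endothelial-only peak of the window, from 57559606 to 57559756 (151 bp), lay 59 bp above the last of these 9, and under a definition of sharing that allows 500 bp between peaks it became the 1 shared site.

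Kupffer-only peaks of Adgre1 made a run of 18 over 78.5 kb up to that endothelial peak; 0.289% of runs were as long. The 6 peaks from 57481082 to 57486757 were the densest stretch, and the widest peak, from 57588895 to 57589248, measured 354 bp, as 1.4% of Kupffer-only peaks did or more. The flanks of this window were unlike each other. The lower flank, on the side of Vav1, held 25 Kupffer peaks, of which 13 were Kupffer-only, and 11 endothelial peaks, none of them endothelial-only. The upper flank, on the side of Vmn2r120, held no peak of either list, and the next peak lay 160.7 kb above the window.

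Cd5l, between the Fc receptor-like genes Fcrls and Fcrl1, had 25 of its 26 Kupffer peaks in a cluster of 51.4 kb from 87130140 to 87181551 and the other one 23.9 kb above it. At its 1 shared site a Kupffer peak of 241 bp, from 87161753 to 87161993, enclosed an endothelial peak of 151 bp from 87161797 to 87161947. Their centres were 1 bp apart, the smallest offset of the 13 shared sites. Next to it, 0.863 kb away, was the widest Kupffer-only peak of the window, 341 bp from 87160593 to 87160933; 1.74% of Kupffer-only peaks were as wide.

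Peaks of the Cd5l window belonged to a longer Kupffer-only stretch. The run that ended at 87160933 held 28 Kupffer-only peaks over 142.4 kb, 14 of them in the window, and 18 of 34902 runs (0.0516%) were as long. Its densest stretch in the window, at the lower edge, held 6 peaks between 87130140 and 87138272. The flanks held 11 and 13 Kupffer peaks, of which 11 and 11 were Kupffer-only, and 0 and 2 endothelial peaks.

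The C1q genes, in the order C1qb, C1qc and C1qa between Ephb2 and Epha8 (genes of ephrin receptors), had the fewest Kupffer peaks and the most endothelial peaks. Of the 12 Kupffer peaks, 8 or 66.7% were Kupffer-only (34.9% to 90.1%), an interval that includes the 60.9% of the whole list. The 4 shared sites followed each other with 1 Kupffer-only peak among them. Their Kupffer peaks ran from 136442062 to 136442295, 136448906 to 136449106, 136454722 to 136454959 and 136463097 to 136463294, so that their centres were 6.83, 5.83 and 8.36 kb apart. The Kupffer peaks were 234, 201, 238 and 198 bp wide, the endothelial partners 239, 280, 240 and 151 bp, and the centres 10.5, 42.5, 37 and 5.5 bp apart.

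Endothelial-only peaks of the C1q window were all of the smallest common width and close to Kupffer peaks. The one from 136434187 to 136434337 lay 28 bp from a Kupffer-only peak, the one from 136442375 to 136442525 lay 79 bp from the first shared Kupffer peak, and the one from 136450024 to 136450174 lay 546 bp from a Kupffer-only peak. If a distance of 500 bp was allowed in sharing, 5 Kupffer-only and 1 endothelial-only peak were left. Of the Kupffer-only peaks, 6 lay between 136431451 and 136435951, and 4 of these 6 were 151 bp wide. They were the lowest Kupffer peaks of the window, whose first peak centre lay 21.53 kb inside its lower edge. The widest Kupffer-only peak, from 136450721 to 136450945, measured 225 bp, and 24.9% of Kupffer-only peaks were as wide. The longest Kupffer-only run that reached this window had 5 peaks, and 11.6% of runs were as long.

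The densest stretches of the Timd4, Adgre1, Cd5l and C1q windows, with 6 Kupffer-only peaks each, were less extreme by number of peaks than those of Csf1r and Clec4f. Of all Kupffer-only peaks, 1.68% began a stretch of 10 kb with as many. By the gaps between peaks inside a window, Kupffer peaks stood closer together in the windows than in the genome. Gaps that cross a window edge are left out of the window medians and kept in that of the genome. At the upper edge of Adgre1 the nearest centres lay 26.3 kb inside and 160.7 kb outside. The median of the C1q window rests on 11 gaps. Taken over the 6 windows, Kupffer-only peaks stood further from endothelial peaks, but those of the C1q window stood closer. The median distance between the centres of neighbouring Kupffer peaks was 1.53 kb at Cd5l, 1.64 kb at Csf1r, 1.83 kb at the C1q genes, 1.96 kb at Adgre1, 2.20 kb at Clec4f and 2.55 kb at Timd4, against 4.03 kb on chromosomes 1 to 19 and X. The 137 Kupffer-only peaks of the windows had a median distance of 11.3 kb to the nearest endothelial peak, and 46.72% had an endothelial peak within 10 kb, against 4.80 kb and 68.2% over all Kupffer-only peaks. Medians by window were 34.8 kb at Timd4, 20.02 kb at Adgre1, 14.03 kb at Cd5l, 7.28 kb at Csf1r, 6.44 kb at Clec4f and 0.796 kb at the C1q genes. Shares within 10 kb were, in the same order, 16%, 30.77%, 40%, 64.52%, 68.18% and 87.5%.

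Peak widths were compared with those of the whole lists, whose smallest common width was 151 bp. The median Kupffer peak was 206.5 bp wide in the windows and 199 bp in the whole list, and medians by window ran from 197 bp at the C1q genes to 211.5 bp at Clec4f. Peaks of 151 bp made up 16% of Kupffer peaks in the windows (24 of 150) and 26.0% of the whole list; none of the 13 shared Kupffer peaks had that width. Among endothelial peaks the share was 45.0% in the windows (9 of 20) and 34.5% in the whole list. Those 9 comprised each endothelial peak of the Timd4, Cd5l and Adgre1 windows, 2 of 6 at Clec4f, 4 of 7 at the C1q genes and none of 4 at Csf1r. The 13 shared pairs had a median distance of 34 bp between their centres, against 25 bp over all shared Kupffer peaks.

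**Figure D4:**
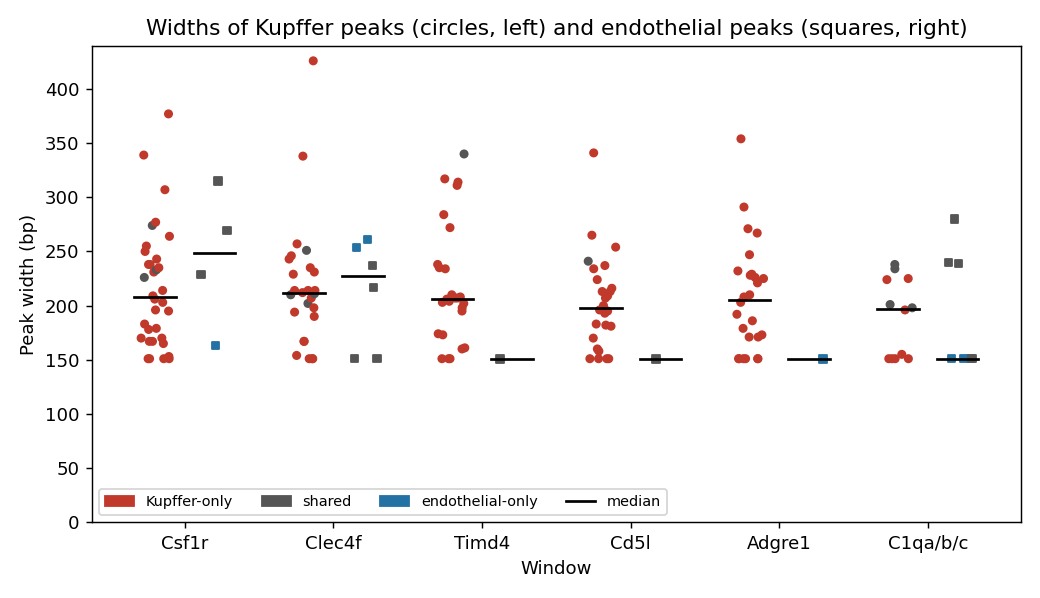
Width in bp of each Kupffer peak (circles, left) and endothelial peak (squares, right) in the 6 windows, coloured by kind, with a black line at the median. Kupffer medians lie between 197 and 211.5 bp, and the endothelial peaks of Timd4, Cd5l and Adgre1 are at 151 bp.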

How the data were processed

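The files used were 2 peak lists, 1 per cell type, deposited by the authors with 3 columns (chromosome, start and end) and no score, count or header. The list names mark nucleosome-free-region peaks. Per the submitters' processing notes, Bowtie, HOMER and the build mm9 were used; versions, threshold, transposase offset, fragment selection and the pooling of the 32 libraries are not given there. How genotypes and times were combined is thus not known, and a peak may come from any of the 16 libraries of its cell type. Absence from a list is not the same as closed chromatin.

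Peaks were assigned by their centres and overlaps counted with NumPy 2.4.6 in Python 3.11.15. Counts of shared peaks were equal to those of bedtools 2.31.1. The overlap rule was tested on simulated data, and the assignment of peaks to windows was not. Binomial intervals (95%, Clopper-Pearson) came from SciPy 1.17.1. Background windows were laid from the start of each chromosome, and those with no peak were left out. Positions count from 1. In each window all shared sites, all endothelial-only peaks, the widest Kupffer-only peak and the 10 kb with the most Kupffer-only peaks are named by rule; the runs and clusters were added after the data were seen. The windows, members and lists were chosen with earlier results of these data known. Alternatives were another overlap, width, joining of peaks, window size, list length and flank.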

Additional observations from a re-analysis of the deposited data

How the results depend on the processing

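Of 73 alternative values for the 6 windows together, 70 stayed within 1.5 times a count or ratio or within the binomial interval of a share, and 3 moved further. Leaving out peaks of the smallest common width left 11 endothelial peaks and 11.45 Kupffer peaks per endothelial peak, and widening each window by 20 kb on each side gave 35 endothelial peaks. Of the peaks in the windows, 24 of 150 Kupffer and 9 of 20 endothelial peaks had the smallest common width, and leaving out that width also raised the ratio of the whole lists, to 1.7 against 1.51. The Kupffer-only share ran from 87.17% (widened windows) to 93.65% (peaks of the smallest common width left out), beside 60.9% and 66.2% of the whole list. The endothelial-only share ran from 20% (500 bp allowed in sharing) to 50% (overlap of 50% of both peaks), beside 34.4% and 48% of the whole list. With the Kupffer list cut to its widest peaks this share was 35%, beside 58.1%. Without peaks of the smallest common width it was 27.27%, beside 43%, and with peaks within 500 bp joined 31.58%, beside 40.5%. All its values counted as unmoved, since the interval from 20 peaks was 15.4% to 59.2%. Endothelial counts could not move where the Kupffer list alone was cut, and these values are among the 70. With the Kupffer list cut to its widest peaks, as many as the endothelial list holds, the ratio was 5.3, against 1.00 for the whole lists. The ratio was 10.6 without the C1q window. The endothelial density in windows over flanks was 1.03 without the Adgre1 window and below 1 in the other alternatives run. For single windows 24 of 144 values moved by more than 1.5 times, 18 of them endothelial counts. Without peaks of 151 bp the windows of Timd4, Cd5l and Adgre1 held 0 endothelial peaks and that of the C1q genes 3. No paired analysis was possible because a list names no library, and so no replicate was left out either. The unknown depth limits what absence of a peak can show.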
